A study of Mus musculus with 12 samples.

Results

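The Fc gamma receptors of tumour-associated macrophages (TAMs) and the proteins that carry their signal were followed through 7 listed genes, taken by name from the count table. The genes were the activating receptors Fcgr1, Fcgr3 and Fcgr4, the inhibitory receptor Fcgr2b, the shared signalling chain Fcer1g and the kinases Lyn and Syk. All 7 were among the 24781 rows of the table and among the 9580 genes with enough molecules to be tested.

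Fc gamma receptors bind the constant part of IgG antibodies. On a macrophage, the activating receptors pair with the common gamma chain, whose ITAM (immunoreceptor tyrosine-based activation motif) is phosphorylated by kinases of the Src family such as Lyn and then recruits Syk, which starts phagocytosis, the oxidative burst and cytokine release. Fcgr2b instead carries an inhibitory motif (ITIM) that recruits the phosphatase SHIP1, and the balance of both kinds is known to set how macrophages respond to antibody-coated tumour cells.

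The study asked how blockade of the GABA type A receptor alters TAMs. Wild-type C57BL/6J or C57BL/6N mice of both sexes, 2 to 5 months of age, received DMSO (the solvent) or picrotoxin (an antagonist of that receptor, 40 µg per mouse) intraperitoneally, starting a day before intradermal inoculation of MC38 cells, a mouse colon adenocarcinoma line, and then every other day. On day 7, 100 CD45+CD11b+F4/80high cells were sorted from the tumour for each library, and 6 DMSO and 6 picrotoxin libraries were labelled, each numbered 1 to 6. The methods of the study give every library a mouse of its own while its figure text gives fewer mice than libraries, so the p-values here measure the spread between libraries and would be too small if some shared a mouse.

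Libraries held 201697 to 309617 molecules. The 10 macrophage markers were found in both groups, at 0.999 to 1.42% of molecules in DMSO and 1.22 to 1.35% in picrotoxin libraries. Their fitted log2 fold changes (picrotoxin minus DMSO) had a median of 0.18 and were above 0 in 8 of 10, beside 49.2% of all tested genes. Of the 10, 2 were higher at an unadjusted p under 0.05 in edgeR, Itgam (0.38) and Mrc1 (0.48), beside 3.65% of all tested genes. Mast cell and basophil markers summed to at most 3 molecules per library, and both Fcer1a and Ms4a2, the chains that share Fcer1g in the IgE receptor, were at 0 in every library, as were the B cell marker Cd79a and the neutrophil markers S100a9 and Ly6g. B cell and plasma cell markers summed to 0 to 3 molecules over 7 genes, and neutrophil markers to 4 to 12 over 9. The former sum was all Cd79b, at a log2 fold change of 0.61 (adjusted p of 0.883 in edgeR). The neutrophil sum came from Csf3r, Cxcr2, Mmp8 and S100a8. Of these, Csf3r had 3 to 8 molecules in DMSO and 2 to 10 in picrotoxin libraries. Dendritic cell markers summed to 0 to 7 over 7, and monocyte markers to 221 to 383 over 6. Most of the monocyte sum was Ccr2, at a mean of 232 molecules per library. Of the 5 tested monocyte markers, Chil3 (log2 fold change 1.22) was higher and Vcan (-1.06) lower at an unadjusted p under 0.05 in edgeR. The 5 MC38 markers summed to 8 to 14 molecules in DMSO and 8 to 21 in picrotoxin libraries, with Epcam, Krt18 and Krt19 at 0. Most of that sum was Cdh1, at a mean of 12.7 molecules per library. Cdh1, the 1 tested, had a log2 fold change of 0.70 (unadjusted p of 0.00973 in edgeR). Whether its molecules came from MC38 cells was not tested. The 11 markers of T and NK cells summed to at most 1 molecule in the DMSO libraries and to 22 in picrotoxin replicate 6. That sum was chiefly Gzmb, which averaged 3.57 ± 8.75 normalised molecules (SD, n = 6) after picrotoxin, with 1 library above the DMSO mean. Cd3e, Cd3g, Cd8a and Gzma were at 0 throughout, and Cd8b1 was at 0 in the picrotoxin group. Nkg7, Klrb1c, Ncr1 and Prf1 went the other way. They were at 0 in the DMSO group and found in the picrotoxin group, Ncr1 with at most 1 molecule per library. The 13 fibroblast and matrix markers (Col1a1, Col3a1 and others) were uneven: they took 0.306% of molecules in DMSO replicate 5 and 0.111% in DMSO replicate 3, 0.00857 to 0.0504% in the other DMSO libraries, and 0.00396 to 0.0352% in the picrotoxin libraries, where Lum and Postn were at 0. Libraries numbered 1 and 2 also stood apart from those numbered 3 to 6 in several members, and the labels give no batch. The members' fold changes are also given within replicates 3 to 6 alone and with the libraries richest in matrix markers left out.

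The signalling motifs that set the members apart are short stretches of coding sequence, shown here because they define the activating and the inhibitory side. Both were read from the GENCODE M21 principal transcripts on GRCm38, the assembly also called mm10, and capitals mark the codons of the motif. In Fcer1g the ITAM boxes lie in codons 65 to 79 of the 86 in the reading frame, and the stretch printed covers codons 62 to 82. In Fcgr2b the ITIM begins at codon 317 of 340, within codons 311 to 328 as printed.
Fcer1g: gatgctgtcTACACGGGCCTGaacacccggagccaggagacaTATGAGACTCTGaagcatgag
Fcgr2b: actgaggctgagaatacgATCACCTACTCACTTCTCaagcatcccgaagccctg
Of the 7 reading frames searched, 1 held the ITAM spacing, that of Fcer1g. The shorter ITIM pattern was matched in 5 frames and 6 places, so a match to it alone is a description of the letters and not of a working motif.

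On mm10, Fcgr2b (chr1:170958617-170976547, minus strand), Fcgr4 (chr1:171018920-171029761, plus strand) and Fcgr3 (chr1:171051174-171064935, minus strand) lie within 106319 bases of chromosome 1, and Fcer1g (chr1:171229572-171234365, minus strand) follows in the same 275749-base interval. Fcgr1 lies on chromosome 3 (chr3:96282909-96293969, minus strand), Lyn on chromosome 4 (chr4:3678115-3813122, plus strand) and Syk on chromosome 13 (chr13:52583173-52648792, plus strand). The principal transcripts of Fcgr2b and Fcgr3 share a segment of 512 bases at 96.3% identity that ends 634 bases from the 3′ end of Fcgr2b, so reads from it could be counted for either gene, and how the authors treated such reads is not given in the sources used here. Lyn shares 921 bases with the predicted gene Gm11787 at 98.8% identity. Whether counting used strand is not stated either, and Fcgr2b is overlapped by the antisense gene Gm38204 and Lyn by 4 genes on the other strand.

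No member passed the test over all genes (edgeR quasi-likelihood test, adjusted p under 0.05). All 7 had a fitted log2 fold change (picrotoxin minus DMSO) above 0, beside 49.2% of all tested genes with one above and 50.8% with one below 0, and 6 of 7 did when libraries were scaled by their totals. The median was 0.22 for the members, 0.18 for the 10 macrophage markers and -0.0060 for all tested genes. An unadjusted p under 0.05 was found for 3 of the 7, Lyn, Syk and Fcgr4, each with higher numbers after picrotoxin, beside 3.65% of all tested genes with that p and direction and 7.77% in either direction. An adjusted p under 0.05 was found for 0.0522% of tested genes. The groups of 6 libraries overlapped in all 7 members, and 0.386% of tested genes had groups that did not. In DESeq2, the number of members with an unadjusted p under 0.05 was 1, Lyn, beside 366 genes in all. Since these are bulk samples, fewer cells of a type and less RNA per cell cannot be told apart.

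**Figure D1:**
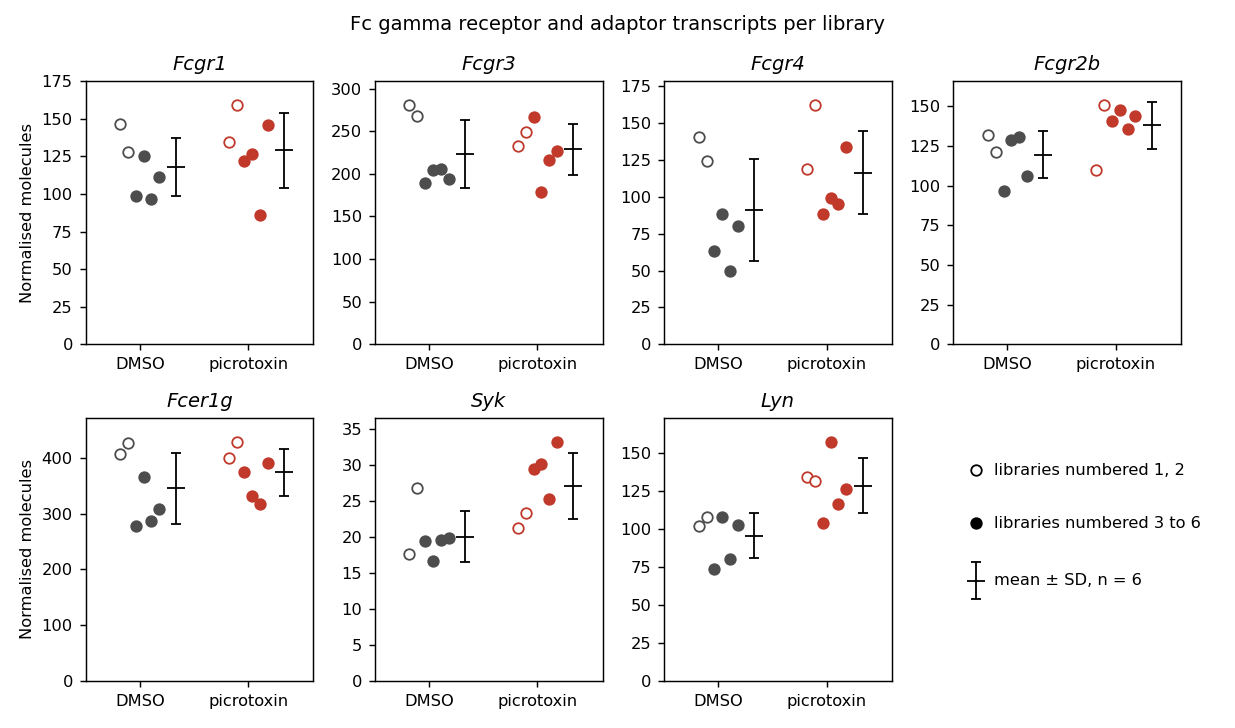
Normalised molecules of the 7 members (vertical axes, from 0) in each DMSO (grey) and picrotoxin (red) library, with the mean ± SD of 6 libraries beside them; open circles are libraries numbered 1 and 2. Lyn reached 74 to 108 molecules in DMSO and 104 to 158 in picrotoxin libraries, whereas the groups of Fcgr3 and Fcer1g overlapped over most of their range.

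Among the activating receptors, Fcgr4 had the largest fitted fold change and Fcgr3 the smallest. Fcgr1 encodes the high-affinity IgG receptor. It was counted at a lowest, median and highest value of 96.5, 118 and 147 normalised molecules in the DMSO libraries and 86.3, 130 and 159 in the picrotoxin libraries. The lowest library of all was picrotoxin replicate 5, although 5 of its 6 group members exceeded the DMSO mean. Its mean was 118 ± 19.3 (SD, n = 6) in DMSO and 129 ± 24.9 (SD, n = 6) after picrotoxin. This gave a log2 fold change of 0.15 (SE 0.13, 95% interval -0.11 to 0.41) and an edgeR adjusted p of 0.849. It was 0.076 without picrotoxin replicate 2, 0.091 without DMSO replicate 5 and 0.24 without picrotoxin replicate 5.

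Fcgr3 encodes a low-affinity activating receptor for immune complexes. Its numbers were 189, 205 and 281 (lowest, median and highest) in DMSO libraries and 179, 230 and 267 in picrotoxin libraries, so the picrotoxin group held the lowest library and the DMSO group the highest, and the ranges overlapped. The means were 224 ± 39.95 and 229 ± 30.3 normalised molecules (SD, n = 6 each). The log2 fold change of 0.043 (SE 0.11, 95% interval -0.19 to 0.27) had an edgeR adjusted p of 0.967. It was -0.011 when libraries were scaled by their totals and fell below 0 in 5 of 24 alternatives in all.

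Fcgr4 encodes the receptor that binds IgG2a and IgG2b with intermediate affinity and is found on myeloid cells. Its lowest, median and highest values were 49.9, 84.3 and 140 normalised molecules in DMSO and 88.3, 109 and 162 in picrotoxin libraries. The 4 lowest libraries were DMSO replicates 5, 3, 6 and 4, while DMSO replicates 1 and 2, at 140 and 124, lay among the picrotoxin libraries. With means of 91.1 ± 34.9 and 116 ± 28.1 (SD, n = 6 each), it had the widest spread in DMSO of the members, a coefficient of variation of 38.4% against the 10.1% that counting alone would give. The log2 fold change was 0.37 (SE 0.18, 95% interval 0.012 to 0.74), with edgeR p-values of 0.0431 unadjusted and 0.627 adjusted, and DESeq2 gave an unadjusted p of 0.177. Leaving out 1 library at a time gave 0.24 (without DMSO replicate 5) to 0.53 (without DMSO replicate 1), and the unadjusted p stayed under 0.05 in 5 of these 12 fits.

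Fcgr2b, the inhibitory receptor, was counted at 96.3, 125 and 132 normalised molecules (lowest, median and highest) in DMSO and 110, 142 and 151 in picrotoxin libraries. Picrotoxin replicate 1 was the low library of its group, and the other 5 picrotoxin libraries lay above all 6 DMSO libraries. The means were 119 ± 14.8 and 138 ± 14.8 (SD, n = 6 each). The log2 fold change of 0.22 (SE 0.11, 95% interval -0.0036 to 0.44) had edgeR p-values of 0.0536 unadjusted and 0.654 adjusted.

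The ratio of activating to inhibitory receptor molecules was taken within each library and described with no test. Molecules of Fcgr1, Fcgr3 and Fcgr4 together, divided by those of Fcgr2b, gave 2.69, 3.64 and 4.30 (lowest, median and highest) in DMSO libraries and 2.74, 3.46 and 4.44 in picrotoxin libraries. The groups covered nearly the same range. For Fcgr4 alone the ratio to Fcgr2b was 0.381, 0.721 and 1.06 in DMSO and 0.627, 0.818 and 1.08 after picrotoxin, with the lowest value in DMSO replicate 5. For Fcgr3 alone it was 1.57, 1.90 and 2.21 in DMSO and 1.21, 1.62 and 2.13 after picrotoxin, again overlapping. These ratios compare libraries with each other, since molecules of different genes need not be captured with the same efficiency.

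Fcer1g, the common gamma chain that the activating receptors need for surface expression and signal, had 279, 337 and 427 normalised molecules (lowest, median and highest) in DMSO and 317, 383 and 429 in picrotoxin libraries. The highest libraries of the groups were nearly equal, and the DMSO group reached lower in replicates 3, 5 and 6. The means were 345 ± 63.6 and 374 ± 42.3 (SD, n = 6 each). The fitted log2 difference was 0.13 (SE 0.11, 95% interval -0.093 to 0.35), with an edgeR adjusted p of 0.847. It was 0.069 without DMSO replicate 3, 0.072 without DMSO replicate 5, 0.078 without picrotoxin replicate 2 and 0.20 without DMSO replicate 2. Fcer1g molecules per molecule of activating receptor were 0.716 to 0.876 in DMSO and 0.751 to 0.822 in picrotoxin libraries, with medians of 0.806 and 0.791.

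Lyn, the Src family kinase that phosphorylates both ITAM and ITIM tyrosines, was counted at 73.7, 102 and 108 normalised molecules (lowest, median and highest) in DMSO and 104, 129 and 158 in picrotoxin libraries. All 6 picrotoxin libraries exceeded the mean of the DMSO group, and 5 of them lay above the highest DMSO library, with picrotoxin replicate 3 inside the DMSO range. The means were 95.7 ± 14.9 and 128 ± 18.1 (SD, n = 6 each). Its log2 fold change was 0.44 (SE 0.12, 95% interval 0.19 to 0.68), with edgeR p-values of 0.000962 unadjusted and 0.242 adjusted. Of all tested genes, 0.386% had a smaller unadjusted p. The value lay between 0.37 and 0.49 when 1 library was left out at a time, and the unadjusted p was under 0.05 in 24 of 24 alternatives, from 0.000156 to 0.021.

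Syk, which docks on the phosphorylated ITAM and is the first kinase of the downstream cascade, was the least counted member, with 17 to 31 molecules per library. Its normalised numbers were 16.7, 19.5 and 26.8 (lowest, median and highest) in DMSO and 21.2, 27.4 and 33.2 in picrotoxin libraries. DMSO replicate 2 was the high library of its group, and the other 5 DMSO libraries lay below all 6 picrotoxin libraries. The means were 20.01 ± 3.55 and 27.1 ± 4.56 (SD, n = 6 each), and counting alone gives a coefficient of variation of 21.3% at the DMSO level, above the 17.8% observed. The log2 fold change was 0.45 (SE 0.18, 95% interval 0.088 to 0.80), with edgeR p-values of 0.0162 unadjusted and 0.499 adjusted. Picrotoxin replicate 6 was the highest library and the one with 22 molecules on T and NK cell markers, chiefly Gzmb. Without it the fold change of Syk was 0.37, with an unadjusted edgeR p of 0.0508. Lyn was then the 1 member with an unadjusted p under 0.05, beside 659 genes in all.

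**Figure D2:**
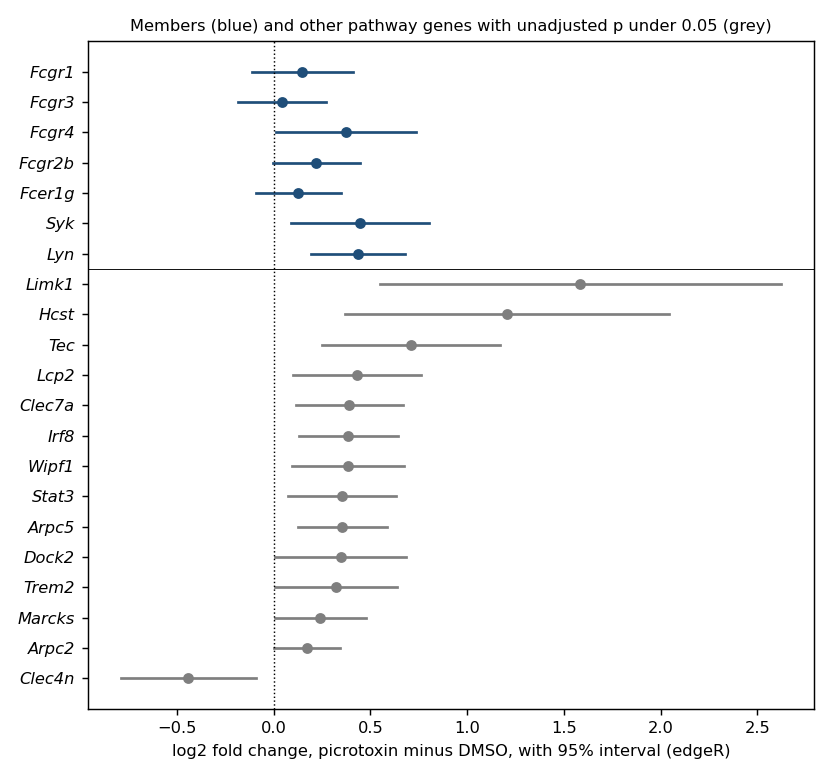
Fitted log2 fold change (picrotoxin minus DMSO, horizontal axis) with its 95% interval for the 7 members (blue) and the other pathway genes with an unadjusted p under 0.05 (grey). The intervals of Fcgr4, Syk and Lyn lie above 0, those of Fcgr1, Fcgr3, Fcgr2b and Fcer1g include 0, and Clec4n is the pathway gene whose interval lies below 0.

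Several members differed between libraries numbered 1 and 2 and those numbered 3 to 6. In DMSO, Fcgr3 stood at 268 and 281 normalised molecules in replicates 2 and 1 and at 189 to 205 in replicates 3 to 6, and Fcer1g at 407 and 427 against 279 to 366. Fcgr4 stood at 124 and 140 against 49.9 to 88.1, and Fcgr1 at 128 and 147 against 96.5 to 125. For Fcgr2b, Lyn and Syk these sets overlapped in DMSO. In the picrotoxin group the same sets overlapped for Fcgr4, at 119 and 162 against 88.3 to 134, and for Fcgr1, Fcgr2b, Fcgr3 and Lyn. They did not overlap for Fcer1g, at 400 and 429 against 317 to 391. Syk did not overlap there either and went the other way, at 21.2 and 23.4 against 25.3 to 33.2.

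Within replicates 3 to 6 alone, a subset formed with earlier results of these data known, the groups did not overlap in 3 members, Fcgr2b, Fcgr4 and Syk, all higher after picrotoxin, beside 2.2% of the genes tested there. An unadjusted p under 0.05 was found in 4 of the 7 (Fcgr2b, Fcgr4, Syk and Lyn), beside 4.69% of genes with that p and direction and 9.64% in either direction. The log2 fold changes there were 0.58 for Fcgr4, 0.66 for Syk, 0.49 for Lyn and 0.31 for Fcgr2b, with edgeR adjusted p-values of 0.106, 0.198, 0.163 and 0.376. Fcgr1, Fcgr3 and Fcer1g stood at 0.18, 0.18 and 0.21 there, with edgeR adjusted p-values of 0.772, 0.681 and 0.549. The difference of the effect between the sets was tested with an interaction term. It was -0.50 (SE 0.25) for Fcgr4, -0.67 (SE 0.37) for Syk and -0.37 (SE 0.18) for Fcgr3, with edgeR adjusted p-values of 0.851, 0.863 and 0.851, and no member reached an unadjusted p under 0.05, which 5.79% of tested genes did.

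The share of fibroblast and matrix markers moved with several members. The libraries richest in these markers, DMSO replicates 5 and 3, had the lowest Fcgr4, at 49.9 and 63.5 normalised molecules, and the lowest Fcer1g, at 286 and 279. They also had the lowest Lyn, at 80.2 and 73.7. Fcgr2b did not follow this order, with 131 in DMSO replicate 5 and 96.3 in DMSO replicate 3. Within the picrotoxin group the order was mixed. Replicate 3, with the lowest share at 0.00396%, had the lowest Fcgr4 (88.3) and Lyn (104) of that group. Replicate 5, with its highest share at 0.0352%, had the lowest Fcer1g (317).

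With both libraries left out, which was decided once the values were known, the fold change was above 0 in 5 of 7 members and their median was 0.12 in place of 0.22, while Fcgr4 stood at 0.12 and Lyn at 0.29 with an unadjusted p of 0.021. With the matrix marker score as a covariate, Fcgr1, Fcgr3 and Fcer1g stood at -0.025, -0.11 and -0.047 and Fcgr4 at 0.051. Lyn, at 0.33 with an unadjusted edgeR p of 0.0129, was the 1 member under 0.05, beside 561 genes in all. Syk and Fcgr2b moved less, to 0.41 and 0.19. The part of other cells in these values was not tested, and matrix share and treatment are tied, since no picrotoxin library reached the share of DMSO replicates 3, 5 and 6.

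**Figure D3:**
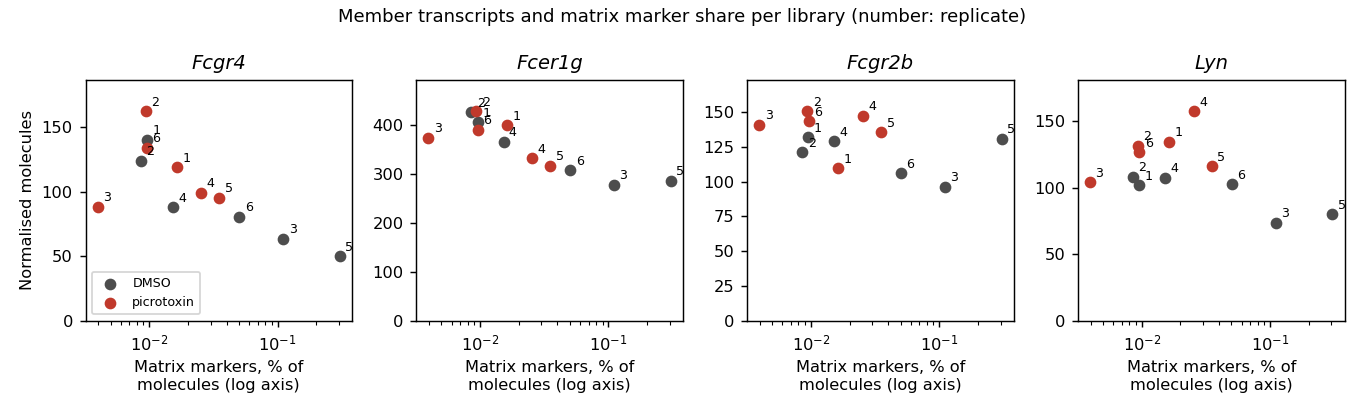
Normalised molecules of Fcgr4, Fcer1g, Fcgr2b and Lyn (vertical axes) against the share of molecules on 13 fibroblast and matrix markers (horizontal log axis, percent) in each DMSO (grey) and picrotoxin (red) library, with replicate numbers. The DMSO libraries 3 and 5, at 0.111 and 0.306%, hold the lowest values of Fcgr4, Fcer1g and Lyn.

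The wider pathway was then described from lists of 130 other genes present in the table, of which 106 were tested. Of these 106, 13 were higher and 1 lower after picrotoxin at an unadjusted p under 0.05, beside 3.65% and 4.11% of all tested genes, and none had an adjusted p under 0.05 in edgeR. A fold change above 0 was found in 80 of 106, or 75.5%, with a median of 0.14. Scaled by library totals, 66.0% were above 0 beside 41.7% of all tested genes. With DMSO replicates 3 and 5 left out, 71 of 107 were above 0, with a median of 0.081.

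**Figure D4:**
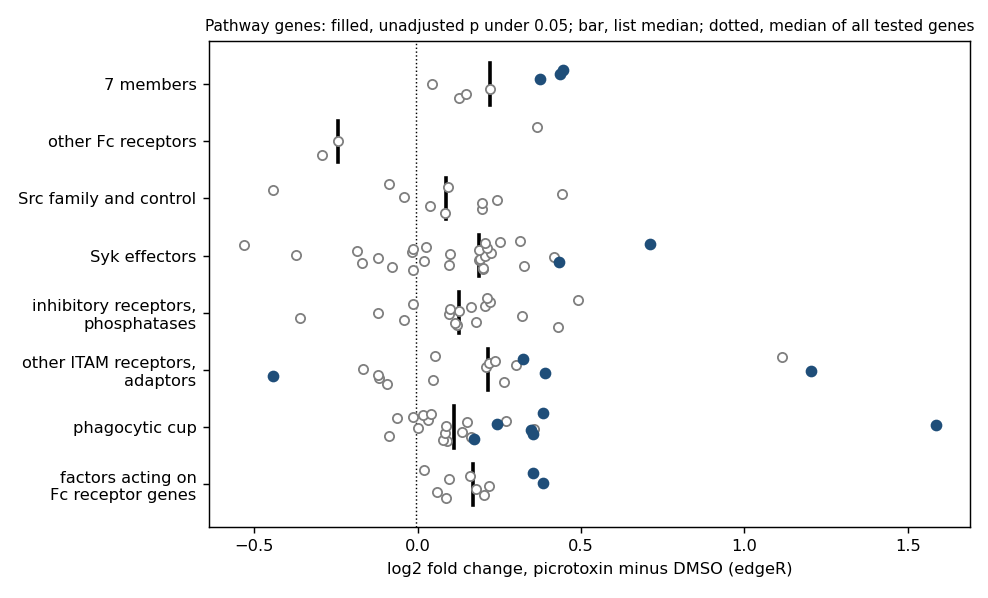
Fitted log2 fold change (picrotoxin minus DMSO, horizontal axis) of each tested gene in the members and 7 pathway lists; filled points have an unadjusted p under 0.05, bars are list medians and the dotted line is the median of all tested genes. All 10 factors acting on Fc receptor genes and 19 of 22 phagocytic cup genes lie above 0, where scaling by library totals gives 9 and 15.

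Of the remaining Fc receptors, 3 passed the filter on low numbers and none had an unadjusted p under 0.05. Fcrls, an Fc receptor-like scavenger receptor, stood at 55.3 ± 17.2 and 46.4 ± 3.66 normalised molecules (SD, n = 6 each) in DMSO and picrotoxin libraries, and Fcgrt, the neonatal Fc receptor that recycles IgG, at 8.15 ± 1.30 and 6.65 ± 1.97. None of the 10 tested genes of the Src family and its control had an unadjusted p under 0.05. Ptprc, the CD45 phosphatase that activates Src kinases and marks the sort, stood at 118 ± 25.7 and 124 ± 6.93.

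Downstream of Syk, 2 of 28 tested effectors had an unadjusted p under 0.05, both higher, beside 7.77% of all tested genes in either direction, and 19 had a fold change above 0. Tec, a kinase that activates phospholipase C gamma, stood at 11.5 ± 2.32 with DMSO and 18.95 ± 5.50 with picrotoxin (SD, n = 6 each). Its log2 fold change was 0.71 (SE 0.23), with an edgeR adjusted p of 0.312. Lcp2, the adaptor SLP-76, stood at 33.0 ± 8.75 and 44.1 ± 7.20. None of the 17 inhibitory receptors and phosphatases had an unadjusted p under 0.05, SHIP1 (Inpp5d) included, at 42.9 ± 7.85 and 45.7 ± 11.97. In that list the most counted were Lilrb4a, an ITIM receptor, at 103 ± 20.6 and 110 ± 12.4, and Sirpa, the CD47 receptor that restrains phagocytosis, at 79.9 ± 11.3 and 91.7 ± 14.4.

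Other receptors that signal through ITAMs, listed with their adaptors, had 3 genes with higher and 1 with lower numbers at an unadjusted p under 0.05, of 16 tested. Of all tested genes, 3.65% were higher and 4.11% lower at that p. Clec7a (Dectin-1, a receptor for beta-glucans) stood at 119 ± 11.3 with DMSO and 155 ± 44.2 with picrotoxin (SD, n = 6 each), with a log2 fold change of 0.39 (SE 0.14) and an edgeR adjusted p of 0.408. Without picrotoxin replicate 4 its fold change was 0.26, with an unadjusted edgeR p of 0.053. Within replicates 3 to 6 alone, the subset formed with earlier results known, it was 0.66, with an edgeR adjusted p of 0.00478. In that subset 49 genes had an adjusted p under 0.05, beside 5 over all libraries. Trem2, a lipid receptor that pairs with Tyrobp, stood at 38.4 ± 8.82 and 47.4 ± 5.06, with a fold change of 0.32 that was 0.19 without DMSO replicate 6 (unadjusted p of 0.196 in edgeR). Hcst, the adaptor DAP10 that recruits PI 3-kinase in place of an ITAM, stood at 2.62 ± 1.48 and 6.05 ± 1.86. Clec4n, the Dectin-2 receptor that pairs with Fcer1g, was the gene with lower numbers, 35.9 ± 7.47 in DMSO and 26.2 ± 5.68 after picrotoxin, with all 6 picrotoxin libraries below the DMSO mean.

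In the phagocytic cup, 6 of 22 genes had an unadjusted p under 0.05, all with higher numbers after picrotoxin. Of all tested genes, 3.65% had that p and direction. A fold change above 0 was found in 19 of the 22. This became 13 with the matrix score as a covariate and 15 with DMSO replicates 3 and 5 left out. Arpc5 and Arpc2, subunits of the Arp2/3 complex that nucleates branched actin, stood at 82.6 ± 8.14 and 105 ± 12.4, and at 455 ± 39.7 and 508 ± 28.4, without and with picrotoxin (SD, n = 6 each). Wipf1, which binds the actin regulator WASP, stood at 37.4 ± 4.53 and 48.2 ± 7.55, and Dock2, an activator of Rac, at 25.1 ± 5.21 and 31.8 ± 4.85. Marcks, which links actin to the membrane, stood at 182 ± 36.7 and 213 ± 19.3, and Limk1, a kinase that restrains actin severing, at 1.68 ± 0.869 and 5.23 ± 3.67. The fold change of Marcks was 0.24, and 0.16 without DMSO replicate 5 and 0.091 with DMSO replicates 3 and 5 left out.

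All 10 factors known to act on Fc receptor genes had a fold change above 0, beside 49.2% of all tested genes. Scaled by library totals, 9 of 10 did, beside 41.7%. Of the 10, 2 had an unadjusted p under 0.05, both higher, beside 3.65% of all tested genes with that p and direction. Irf8, a transcription factor of the monocyte lineage, stood at 121 ± 27.3 with DMSO and 157 ± 16.6 with picrotoxin (SD, n = 6 each). Its log2 fold change was 0.39 (SE 0.13), with an edgeR adjusted p of 0.341. It was 0.21 with DMSO replicates 3 and 5 left out and 0.56 within replicates 3 to 6 alone, where the edgeR adjusted p was 0.0394. Stat3, which carries the IL-10 signal, stood at 43.0 ± 7.11 and 54.1 ± 6.63. The interferon gamma receptor chains Ifngr1 and Ifngr2 had adjusted p-values of 0.972 and 0.850 in edgeR.

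The genes whose numbers followed each member most closely were taken as the 2 with the highest Pearson correlation of log2 CPM over the 12 libraries, among 2057 genes with a mean of at least 20 molecules. These are descriptions over libraries that share their depth and group structure. For Fcgr2b they were Ms4a6d (r = 0.987) and Abi1 (r = 0.912), for Fcgr4 Marcks (r = 0.944) and B2m (r = 0.935), and for Fcgr3 Prdx5 (r = 0.939) and Tmsb4x (r = 0.938). For Fcgr1 they were Mbd2 (r = 0.899) and Actr3 (r = 0.897), and for Fcer1g Ctss (r = 0.934) and Lamp2 (r = 0.926). For Lyn they were Sdc4 (r = 0.887) and Tor1aip1 (r = 0.862), and for Syk, the least counted member, Arf1 (r = 0.849) and Gatm (r = 0.810).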

How the data were processed

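The values the authors deposited are counts of molecules, whole numbers in 1 column for each of the 12 libraries and 1 row per gene symbol. Per the labels and the study's methods, RNA was primed with oligo-dT carrying a molecular barcode, and reads were mapped to mm10 with STAR and assigned with refFlat. Barcode correction, strand and multi-mapping reads are not given in the sources used here. The table held 24781 rows and 0 rows for spike-in RNAs, so total RNA per cell was not analysed here. Library totals were 201697 to 309617, and the 30 pairs of libraries within a group differed by more than counting noise (chi-square per degree of freedom 1.23 to 3.15).

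Normalised molecules are counts divided by DESeq2 size factors. Genes with a mean above 1 (9580) were tested with the edgeR 4.0.16 quasi-likelihood test on TMM-normalised counts, two-sided, with Benjamini-Hochberg adjustment over all of them, in R 4.3.3. A change was called at an adjusted p under 0.05. Standard errors were derived from the fold change and the F statistic. Because the study called genes in DESeq2 without adjustment, unadjusted p-values are given beside the share of all genes that pass. DESeq2 1.42.0, limma-voom 3.58.1, other scalings and filters, the replicate number as a block, replicates 3 to 6 alone, a matrix marker score as a covariate and leaving out each library were alternatives. The tests were tested on simulated data.

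The members, pathway and marker lists and the subsets were chosen with earlier results of these data known. Named pathway genes were those of each list with an unadjusted p under 0.05 or, where none passed, the most counted. Inpp5d, Ifngr1 and Ifngr2 were added for their role after values were seen. The values of some listed genes are not reported here, although they are counted among the tests. Positions and transcripts are those of GENCODE M21 on GRCm38. All 7 symbols matched. Segments shared between transcripts were searched with BLAST at a minimum of 50 bases and 95% identity. Motifs were searched in the translation of each reading frame, the ITAM as paired tyrosine boxes 6 to 12 residues apart. Protein sequences other than these translations were not used here, and promoters were not examined since no member passed the adjusted test. The samples' groups and numbers come from their titles.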

Additional observations from a re-analysis of the deposited data

Results flagged for a closer look

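In Fcgr2b, picrotoxin replicate 1 lay far from the rest of its group, at 109.7 normalised molecules where the other 5 held 136 to 151. Without it the log2 fold change of Fcgr2b was 0.28, with an unadjusted p of 0.0179, in place of 0.22 and 0.0536. In Syk, DMSO replicate 2 lay far above its group, at 26.81 normalised molecules where the other 5 held 16.7 to 19.8. The comparison was made in 16 groups of 6 libraries, and chance alone marks about 1 in 20 such groups, or 0.8 here.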

How the results depend on the processing

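Over all libraries edgeR gave 5 genes at an adjusted p under 0.05. This count was 13 with library totals, 2 with DESeq2, 3 with limma-voom, 81 with no filter beyond 1 count, 12 without the ribosomal RNA row Rn45s, 27 with numbers 1 and 2 against 3 to 6 as a term, 49 in replicates 3 to 6 alone, 0 with the matrix score as a covariate, 1 with DMSO replicates 3 and 5 left out together (chosen after seeing the data), and 0 to 25 when 1 library was left out at a time. The cause was not tested. The 744 genes with an unadjusted p under 0.05 became 366 with DESeq2 and 396 with a mean above 10, where fewer genes were tested, and the 14 pathway genes became 8 there. The 3 members with an unadjusted p under 0.05 became 1 with DESeq2, with the matrix score and without picrotoxin replicate 6. Beside them stood 366, 561 and 659 genes in all. Over the libraries left out in turn, 1 to 4 members had that p. Fcgr1 turned to -0.025 with the matrix score. Fcgr3 turned to -0.011 with library totals, -0.11 with the matrix score and -0.048 with DMSO replicates 3 and 5 left out, and ran from -0.0045 to 0.12 over the libraries left out in turn, below 0 without DMSO replicate 3 (-0.0025) or picrotoxin replicate 3. Fcer1g turned to -0.047 with the matrix score and -0.0078 with DMSO replicates 3 and 5 left out. Fcgr2b, Fcgr4, Syk and Lyn were above 0 in 24 of 24 alternatives, with an unadjusted p under 0.05 in 7, 12, 21 and 24. On CPM from library totals, the group median was higher after picrotoxin in 7 of 7 members, by a ratio of 1.06 to 1.37. Scaling by library totals moved the median of all genes to -0.063 and the share of higher genes among those with an unadjusted p under 0.05 from 47.0% to 28.9%.

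Over all tested genes, deviations from the group mean correlated at -0.0164 to 0.0469 in the 6 same-numbered pairs. Pairs with other numbers gave -0.115 to 0.0937, and 0 of 6 libraries were best with their own number. Counting noise lowers such correlations, so they cannot settle whether the numbers pair libraries. With the replicate number as a block, 43 genes had an adjusted p under 0.05, among them Lyn, at 0.44 with an adjusted p of 0.0416, the 1 member so called in any alternative.

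Syk rests on 17 to 31 molecules per library, and its spread within groups is no wider than counting alone gives.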
